A study of Mus musculus with 18 samples.

Results

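The Hox genes of mouse embryonic fibroblasts were described in 6 groups of cells whose labels cross the Argonaute gene Ago2 with stress of the endoplasmic reticulum (ER). The members were the assembled loci that carried a Hox symbol of the A, B, C or D cluster. They were 35 loci of the 51499 in the deposited table and held 39 Hox genes. In 31 of the 35 the locus held a single Hox gene. The other 4 were merged over a pair of Hox genes each (Hoxa2 with Hoxa3, Hoxc5 with Hoxc10, Hoxd3 with Hoxd4, Hoxd10 with Hoxd11) and gave no value for either gene alone.

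Hox genes encode homeodomain transcription factors that give cells of the embryo their position along the body axis and along the limb. They lie in 4 clusters, and within a cluster the order of the genes follows the order of their domains of activity. Low paralogue numbers at the 3′ end are active towards the head, and high ones at the 5′ end towards the tail and the tip of the limb. Fibroblasts keep the Hox pattern of the site they came from when they are grown in culture, so the pattern is read as a record of where the cells were taken. In mouse assembly GRCm38, Hoxa2 to Hoxa13 spanned chromosome 6 from 52162417 to 52260880 on the minus strand. The Hoxb genes spanned chromosome 11 from 96194316 to 96368256, the Hoxc genes chromosome 15 from 102921103 to 103036852 and the Hoxd genes chromosome 2 from 74668310 to 74765142, all on the plus strand.

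RNA was sequenced from 18 libraries, 3 in each group, and the table gives 1 FPKM per group (fragments scaled by transcript length and by mapped fragments), made by the authors over its libraries. These values carry no SD and no known depth, so no difference below was tested, and no spread between replicates can be set beside it. Cells labelled Ago2+/+ or Ago2-/- were given the solvent DMSO, tunicamycin, which blocks N-linked glycosylation, or thapsigargin at 500 nM, which blocks the calcium pump of the ER. Both kinds of cell were obtained from another laboratory and were not authenticated, although the authors tested the Ago2-/- cells for loss of the AGO2 protein, and neither the age of the embryos nor the body region they supplied was stated. The study asked which mRNAs are silenced through AGO2, the Argonaute protein that can slice its targets, when the ER is stressed, and Hox genes were not its subject. The groups labelled Ago2+/+ are called DCR1 in the library titles. For 4 libraries the labels conflict on genotype (replicate 2 of each group titled DCR1, and replicate 3 of Ago2-/- DMSO), and the pooled values cannot be given without them.

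The genes that check the labels went against them. Ago2 stood at 22.1, 5.75 and 17.0 FPKM in Ago2+/+ DMSO, tunicamycin and thapsigargin, and at 5.61, 15.5 and 20.7 FPKM in the same treatments of Ago2-/-. The locus merged over Xist, the RNA of the inactive X chromosome, was at 46.6 FPKM in Ago2+/+ DMSO and 33.5 FPKM in Ago2-/- thapsigargin and at most 0.0574 FPKM in the other 4. The Y-linked Ddx3y was at 23.3 FPKM in Ago2+/+ thapsigargin and 24.7 FPKM in Ago2-/- tunicamycin and listed at 0 in the other 4. Every direction given here therefore rests on a label only, and treatment, genotype and source of the cells cannot be told apart. Of 12 fibroblast markers 9 reached 1 FPKM in at least 1 group, with summed levels from 2443 to 3643 FPKM. Of the 9, 7 had a 4-fold range between groups, against 20.9% of all loci at 1 FPKM or above in some group. Vim and the locus merged over S100a4 made up most of the sums, at 952 to 2634 and 285 to 1967 FPKM. The collagen gene Col1a1 was at 111.9, 6.77 and 521 FPKM in Ago2+/+ DMSO, tunicamycin and thapsigargin and at 5.97, 651 and 87.1 FPKM in Ago2-/-, lowest in the 2 groups where Vim was highest. Pdgfrb, a receptor of mesenchymal cells, was at 0.540 and 0.799 FPKM in Ago2+/+ DMSO and Ago2-/- thapsigargin and at 7.84 to 17.9 FPKM in the other 4. Pdgfra, of the same list, had another pattern. It was at 2.62, 0.488 and 6.25 FPKM in Ago2+/+ DMSO, tunicamycin and thapsigargin and at 0.903, 8.72 and 8.28 FPKM in Ago2-/-. Thy1 was listed at 0 in every group, and Lum and Fap did not exceed 0.0861 FPKM. No epithelial marker of 6 and no endothelial marker of 4 reached 1 FPKM, and their sums were at most 2.01 and 0.465 FPKM. Of 4 blood markers Cd68 reached it (sum of the list at most 1.91 FPKM, Adgre1 listed at 0), of 3 muscle markers Des did (sum from 0.278 to 2.95 FPKM), and of 3 neural markers found Nes and Sox2 did (sum from 40.4 to 66.5 FPKM). Their part in the Hox values was not tested. In bulk samples fewer cells with a gene and less RNA per cell cannot be told apart.

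Of the 35 Hox loci, 26 reached 1 FPKM in at least 1 group. The other 9 stayed below it everywhere, of which 5 (Hoxb1, Hoxc11, Hoxc12, Hoxd1 and Hoxd12) were listed at 0 in all 6 groups, and the highest value among the 9 was 0.860 FPKM for Hoxa13 in Ago2-/- thapsigargin. A value of 0 in this table can be a failed estimate, so no plain ratio of FPKM is given against it. Counts, ranges and differences on the log2(FPKM + 0.1) scale do include such values, and their size there rests on the added 0.1. The 26 loci took few forms. Reading a locus as detected from 1 FPKM, 7 were detected in all 6 groups, and all 7 belonged to the Hoxa cluster. A further 9, all of Hoxb, were detected in Ago2+/+ tunicamycin, Ago2+/+ thapsigargin, Ago2-/- DMSO and Ago2-/- tunicamycin. The 5 detected loci of Hoxc shared Ago2+/+ tunicamycin and Ago2-/- DMSO, and 3 posterior loci, Hoxa11, Hoxd10/Hoxd11 and Hoxd13, shared Ago2+/+ DMSO and Ago2-/- thapsigargin. Hoxa9 and Hoxd8 had patterns of their own. Between the lowest and the highest group, 22 of the 26 loci differed 4-fold or more on the log2(FPKM + 0.1) scale, against 20.9% of the 13032 loci at 1 FPKM or above in some group. The median range was 5.43 on the log2 scale for the Hox loci and 0.86 over all loci.

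**Figure D1:**
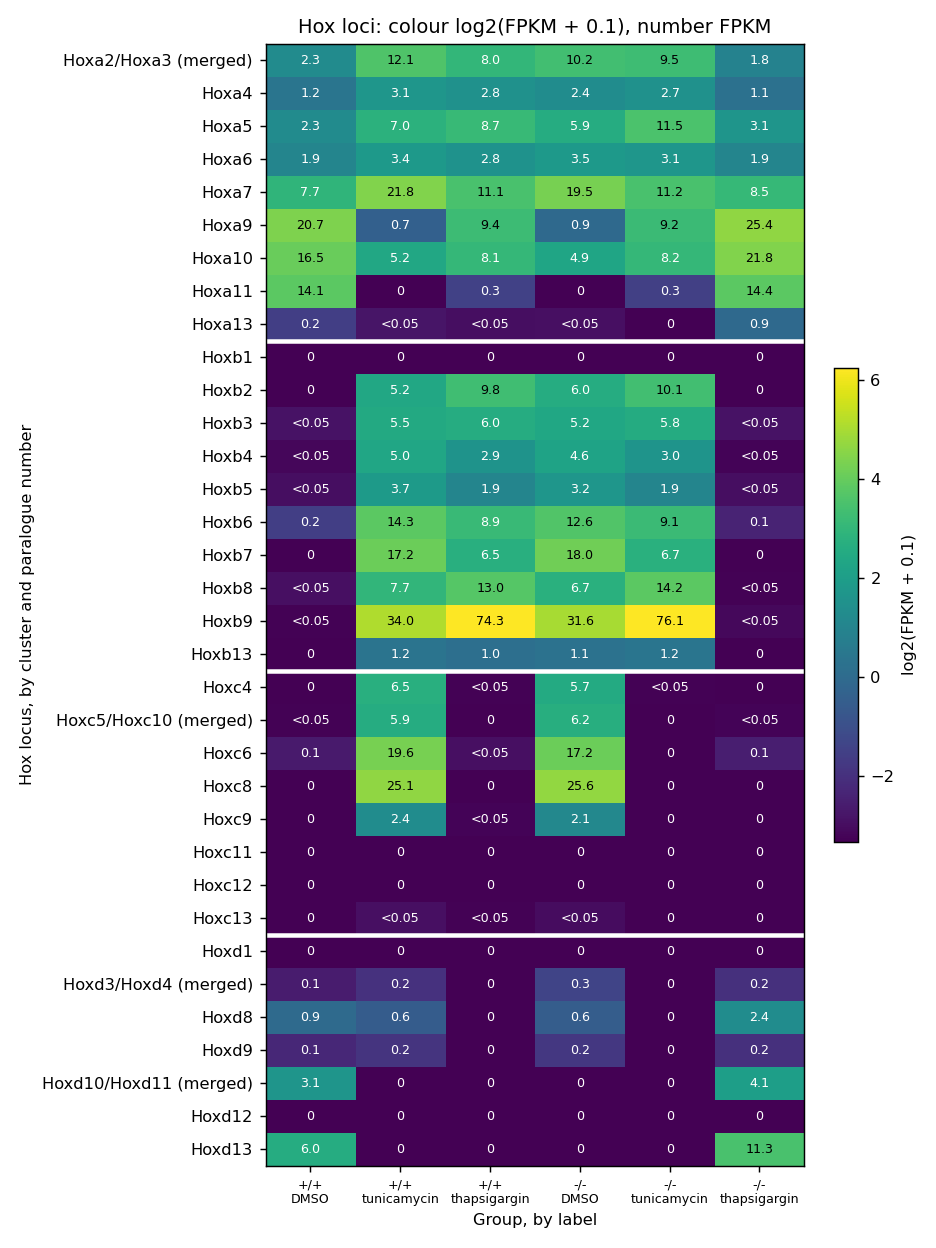
Levels of 34 Hox loci (rows, by cluster and paralogue number, merged loci marked) in the 6 groups (columns, by label). Colour is log2(FPKM + 0.1) and the printed number is the FPKM, 1 pooled value per group without an error. Hoxb is dark in +/+ DMSO and -/- thapsigargin, Hoxc is bright only in +/+ tunicamycin and -/- DMSO, and Hoxa is present in every group.

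The Hoxa cluster was the only one with loci at 1 FPKM in all groups. The locus of Hoxa2 and Hoxa3, genes of the branchial arches and throat, was at 2.34, 12.1 and 8.0 FPKM in Ago2+/+ DMSO, tunicamycin and thapsigargin and at 10.2, 9.48 and 1.78 FPKM in the same treatments of Ago2-/-. Its lowest values fell in Ago2+/+ DMSO and Ago2-/- thapsigargin. Hoxa4, a gene of the neck, was at 1.23, 3.14 and 2.75 FPKM in Ago2+/+ and at 2.44, 2.74 and 1.09 FPKM in Ago2-/-. Hoxa5, which acts in the cervical skeleton and the lung, was at 2.33, 7.01 and 8.75 FPKM in Ago2+/+ and at 5.91, 11.5 and 3.10 FPKM in Ago2-/-. The 2 lowest groups of both genes were again Ago2+/+ DMSO and Ago2-/- thapsigargin. Hoxa6 had the narrowest range of the 26, 0.84 on the log2 scale, between 1.93 and 3.53 FPKM. Hoxa7, active in the trunk, was at 7.66, 21.8 and 11.1 FPKM in Ago2+/+ and at 19.5, 11.2 and 8.48 FPKM in Ago2-/-. The gene models of Hoxa3 to Hoxa6 overlap on the same strand, so their reads cannot be separated with confidence. The loci from Hoxa2/Hoxa3 to Hoxa7 were assembled in a shared span. The same held for Hoxb2 with Hoxb3, Hoxb5 with Hoxb6, and Hoxd3/Hoxd4 with Hoxd8.

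The posterior Hoxa genes ran the other way along the same cluster. Hoxa9, a gene of the lower trunk, the proximal limb and blood progenitors (chromosome 6, 52223100 to 52231089), had 20.7 FPKM with DMSO, 0.673 with tunicamycin and 9.42 with thapsigargin under the Ago2+/+ label. Under the Ago2-/- label it had 0.865 FPKM with DMSO, 9.16 with tunicamycin and 25.4 with thapsigargin. Hoxa9 was thus highest in Ago2+/+ DMSO and Ago2-/- thapsigargin and below 1 FPKM in Ago2+/+ tunicamycin and Ago2-/- DMSO. Hoxa10, which patterns the uterus and the upper hindlimb, was highest in the same 2 groups and had a smaller span, at 16.5, 5.18 and 8.11 FPKM in Ago2+/+ and at 4.87, 8.18 and 21.8 FPKM in Ago2-/-. Hoxa11, needed for the forearm and lower leg (chromosome 6, 52242106 to 52245810), had 14.1 FPKM in Ago2+/+ DMSO and 14.4 in Ago2-/- thapsigargin. It was at 0.259 and 0.253 FPKM in Ago2+/+ thapsigargin and Ago2-/- tunicamycin and Ago2+/+ tunicamycin and Ago2-/- DMSO had it listed at 0. Hoxa13, a gene of the hand and foot plate, stayed below 1 FPKM but had its 2 highest values, 0.246 and 0.860 FPKM, in the same groups as Hoxa11.

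The Hoxb cluster separated the groups by presence. No Hoxb locus of 10 reached 1 FPKM in Ago2+/+ DMSO or Ago2-/- thapsigargin, where the highest was Hoxb6 at 0.242 and 0.0928 FPKM. In each of the other 4 groups 9 of the 10 did, and only Hoxb1, a hindbrain gene, was listed at 0. Hoxb2, active in the hindbrain and neck, was at 5.21 and 9.80 FPKM in Ago2+/+ tunicamycin and thapsigargin and at 5.98 and 10.1 FPKM in Ago2-/- DMSO and tunicamycin, and was listed at 0 in the remaining 2. Hoxb3 in those 4 groups was at 5.47, 5.98, 5.17 and 5.78 FPKM, against 0.0388 FPKM in Ago2+/+ DMSO and 0.0365 in Ago2-/- thapsigargin. Hoxb3 thus stood at a similar height in all 4, while Hoxb2 was higher in Ago2+/+ thapsigargin and Ago2-/- tunicamycin than in the other 2 groups with Hoxb. Hoxb4, known from the neck and from blood stem cells, was at 4.96 and 2.90 FPKM in Ago2+/+ tunicamycin and thapsigargin and at 4.55 and 3.02 FPKM in Ago2-/- DMSO and tunicamycin, with 0.0127 and 0.00662 FPKM in Ago2+/+ DMSO and Ago2-/- thapsigargin. Hoxb5, which helps to place the shoulder girdle, was in the same order at 3.65, 1.94, 3.18 and 1.93 FPKM, with 0.0272 and 0.0286 FPKM in those last 2 groups.

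The trunk genes of Hoxb included Hoxb9, the locus with the highest level of the 35. Hoxb6 was at 14.3 and 8.89 FPKM in Ago2+/+ tunicamycin and thapsigargin and at 12.6 and 9.10 FPKM in Ago2-/- DMSO and tunicamycin. Hoxb7, in the same order, was at 17.2, 6.47, 18.0 and 6.67 FPKM and was listed at 0 in Ago2+/+ DMSO and Ago2-/- thapsigargin. Both were higher in Ago2+/+ tunicamycin and Ago2-/- DMSO than in Ago2+/+ thapsigargin and Ago2-/- tunicamycin. For Hoxb8 and Hoxb9 that order was turned. Hoxb8 (chromosome 11, 96281905 to 96285315), a trunk gene, was at 7.73 and 13 FPKM in Ago2+/+ tunicamycin and thapsigargin and at 6.66 and 14.2 FPKM in Ago2-/- DMSO and tunicamycin, with 0.0310 and 0.00372 FPKM in Ago2+/+ DMSO and Ago2-/- thapsigargin. Hoxb9 (chromosome 11, 96271457 to 96276595), a gene of the rib-bearing trunk, reached 34.0 and 74.3 FPKM in Ago2+/+ tunicamycin and thapsigargin and 31.6 and 76.1 FPKM in Ago2-/- DMSO and tunicamycin. In Ago2+/+ DMSO and Ago2-/- thapsigargin it was at 0.00391 and 0.0161 FPKM. Its range of 9.52 on the log2 scale was the widest of the Hox loci. Hoxb13, the tail-end member of the cluster, which lies apart from the rest, was just above the detection line, between 1.02 and 1.22 FPKM, in the 4 groups with Hoxb and was listed at 0 in the other 2.

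The Hoxc cluster marked a single pair of groups, Ago2+/+ tunicamycin and Ago2-/- DMSO. Hoxc4, active in the neck and forelimb region (chromosome 15, 103018934 to 103036852), was at 6.53 and 5.69 FPKM there and at no more than 0.00439 FPKM in the other 4. The locus of Hoxc5 and Hoxc10 was at 5.94 and 6.25 FPKM and at most 0.00593 FPKM elsewhere, and how much of it belongs to the anterior or the posterior gene cannot be told. Hoxc6, a gene of the upper thorax, was at 19.6 and 17.2 FPKM, with no more than 0.0731 FPKM in the others. Hoxc8 (chromosome 15, 102990607 to 102994111), which patterns the thorax and its motor neurons, had the highest Hoxc level, 25.1 and 25.6 FPKM, and was listed at 0 in all 4 remaining groups. Hoxc9, active in the lower thorax, was at 2.39 and 2.09 FPKM and at most 0.00720 FPKM elsewhere. Hoxc11 and Hoxc12, genes of the hindlimb and tail, were listed at 0 in every group, and Hoxc13, known for its part in hair and nails, did not exceed 0.0303 FPKM. The gene model of Hoxc5 overlaps those of Hoxc6, Hoxc8, Hoxc9 and Hoxc10, and reads may have been divided between them by the authors' counting. Sox2, a marker of neural progenitors, moved with Hoxc, at 5.72 and 5.86 FPKM in Ago2+/+ tunicamycin and Ago2-/- DMSO and at most 0.00399 FPKM elsewhere. Sox10 was at or near 0 in every group. Nes, of the same list, did not move with Hoxc, at 51.9 and 56.6 FPKM in these 2 groups and from 40.4 to 66.5 FPKM in the others. The sum of the 6 epithelial markers was 1.52 and 2.01 FPKM in these 2 groups and at most 0.393 FPKM in the others. That sum came mostly from Krt8, Krt18 and Krt14, while Epcam and Cdh1 were highest in Ago2-/- tunicamycin, at 0.0977 and 0.181 FPKM. Their part in the Hoxc values was not tested.

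The Hoxd cluster was low, and what it held was posterior. Hoxd13 (chromosome 2, 74668310 to 74671599), which shapes the digits and the genital tubercle, had 6.03 FPKM in Ago2+/+ DMSO and 11.3 FPKM in Ago2-/- thapsigargin and was listed at 0 in the other 4 groups. The merged locus of Hoxd10 and Hoxd11, genes of the limb and lower trunk, was at 3.08 and 4.06 FPKM in those 2 groups and also listed at 0 in the others. These were the groups in which Hoxa9, Hoxa10 and Hoxa11 were highest and no Hoxb or Hoxc locus was detected. Of the 3 muscle markers, Des moved with them, at 2.95 and 2.58 FPKM in these 2 groups and at most 0.499 FPKM elsewhere, while Myod1 and Myog did not exceed 0.0201 FPKM. Their part in the posterior Hox values was not tested. Hoxd8, a trunk gene, was at 0.880, 0.582 and 0 FPKM in Ago2+/+ DMSO, tunicamycin and thapsigargin and at 0.606, 0 and 2.41 FPKM in Ago2-/-, so that it passed 1 FPKM only in Ago2-/- thapsigargin. The locus of Hoxd3 and Hoxd4 was at most 0.288 FPKM and Hoxd9 at most 0.193 FPKM. Ago2+/+ thapsigargin and Ago2-/- tunicamycin had all 7 Hoxd loci listed at 0.

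**Figure D2:**
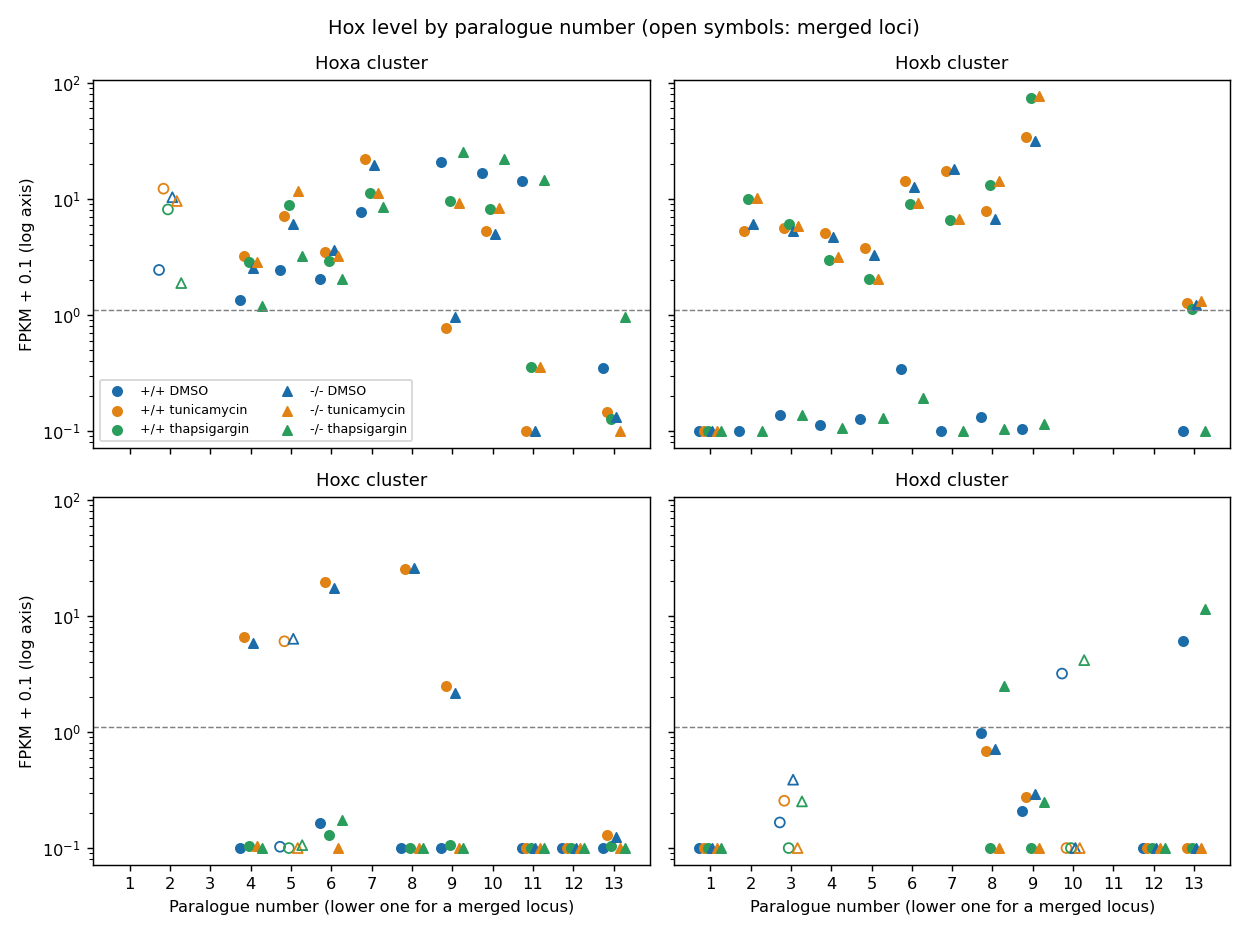
FPKM + 0.1 (log axis) against paralogue number in the 4 clusters, 1 symbol per group (circles labelled +/+, triangles labelled -/-, blue DMSO, orange tunicamycin, green thapsigargin), open where the locus is merged, with the dashed line at 1 FPKM. In Hoxa the blue circles and green triangles lie lowest at paralogues 2 and 4 and highest from paralogue 9, and in Hoxd the same symbols reach paralogue 13.

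Summed over all Hox loci, the Ago2+/+ groups had 82.5 FPKM with DMSO, 215 with tunicamycin and 182 with thapsigargin, and the Ago2-/- groups had 201, 189 and 101 FPKM. The Hoxa share of that sum was 87.2% and 81.8% in Ago2+/+ DMSO and Ago2-/- thapsigargin, while the rest there came from Hoxd with 12.3% and 17.9%. In Ago2+/+ tunicamycin and Ago2-/- DMSO, Hoxb gave 43.6% and 44.2%, Hoxa 28.3% and 27.0% and Hoxc 27.7% and 28.3%. In Ago2+/+ thapsigargin and Ago2-/- tunicamycin, Hoxb gave 68.4% and 67.9% and Hoxa 31.6% and 32.1%. The summed Hoxa level itself moved little, between 54.3 and 82.5 FPKM, while its anterior and posterior genes ran in opposite directions. By paralogue number, with the merged loci that span these bands counted in the total only, genes 9 to 13 made up 73.7% and 77.4% of the sum in Ago2+/+ DMSO and Ago2-/- thapsigargin. In Ago2+/+ tunicamycin and Ago2-/- DMSO, genes 4 to 8 made up 62.7% and 62.4% and genes 9 to 13 made up 20.3% in both. Genes 9 to 13 made up 51.2% in Ago2+/+ thapsigargin and 50.3% in Ago2-/- tunicamycin, where Hoxb9 alone gave 74.3 of 93.1 FPKM and 76.1 of 94.9 FPKM. The share of genes 1 to 3 was between 5.41% and 16.4% in every group.

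**Figure D3:**
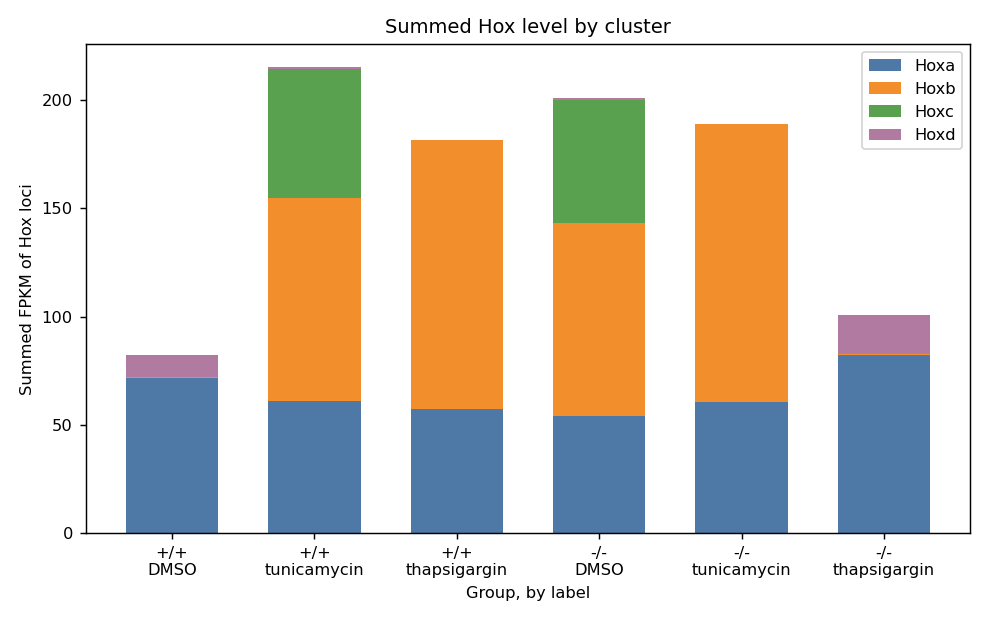
Summed FPKM of the Hox loci (y axis) in each of the 6 groups, stacked by cluster, without error bars because each group has 1 pooled value. The Hoxa part lies between 54.3 and 82.5 FPKM in every group, while Hoxb, Hoxc and Hoxd each have a visible part in some groups only.

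The design sets each stressor against DMSO within a genotype label. Loci at 1 FPKM or above in either group entered, and a difference counted from 2-fold on the log2(FPKM + 0.1) scale. Against Ago2+/+ DMSO, Ago2+/+ tunicamycin differed at 23 of 25 Hox loci, and 20.0% of all loci did so. Of these, 18 were higher (10.7% of all loci) and 5 lower (9.31%). All Hoxb and Hoxc loci that entered were among the higher ones, and Hoxa9, Hoxa10, Hoxa11, Hoxd10/Hoxd11 and Hoxd13 were the lower ones, with a Hoxa9 difference of -4.75. Ago2+/+ thapsigargin differed from the same DMSO group at 17 of 20 (19.1% of all loci), with 12 higher (10.3%) and 5 lower (8.71%), and the lower loci were again Hoxa9, Hoxa10, Hoxa11, Hoxd10/Hoxd11 and Hoxd13. There the Hoxa9 difference was -1.13. Both comparisons share the DMSO group, so they are not independent.

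Within the Ago2-/- label the counts differed between the 2 comparisons, where treatment and source of the cells cannot be told apart. Ago2-/- tunicamycin differed from Ago2-/- DMSO at 9 of 22 Hox loci (24.9% of all loci). The 3 higher ones (13.2% of all loci) were Hoxa9, Hoxb8 and Hoxb9, and the 6 lower ones (11.7%) were Hoxb7 and the 5 Hoxc loci. For Hoxa9 the difference was 3.26 and for Hoxb7 -1.42 on the log2 scale. Ago2-/- thapsigargin differed from Ago2-/- DMSO at 23 of 26 (20.4% of all loci), with 6 higher (9.43%) and 17 lower (10.9%). The higher ones were Hoxa9, Hoxa10, Hoxa11, Hoxd8, Hoxd10/Hoxd11 and Hoxd13, and the lower ones took in every Hoxb and Hoxc locus that entered. For Hoxa9 the difference was 4.72, opposite in sign to that in the Ago2+/+ label. Of the Hox loci that entered under both labels, 7 of 22 with tunicamycin (10.1% of all loci) and 16 of 20 with thapsigargin (7.15%) differed 2-fold or more in opposite directions.

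Set by genotype label within a treatment, the Hox loci differed as widely as between treatments. Ago2-/- DMSO differed from Ago2+/+ DMSO at 22 of 25 (20.0% of all loci), with 17 higher (10.6%) and 5 lower (9.42%). Under tunicamycin the labels differed at 8 of 22 (24.3%), with Hoxa9 and Hoxb9 higher in Ago2-/- (2 loci, against 13.1% of all loci) and 6 lower (11.2%), Hoxb7 and the Hoxc loci. Under thapsigargin they differed at 18 of 21 (19.6%), with 6 higher in Ago2-/- (8.64%) and 12 lower (10.9%). The median difference over the Hox loci that entered came to 4.45 with DMSO, -0.48 with tunicamycin and -1.47 with thapsigargin, and over all loci it stayed between -0.03 and 0.01. The size of the Hox medians depended on how low values were handled. The DMSO median ran from 1.71 without the filter to 6.42 with a pseudocount of 0.01, and the thapsigargin median from -0.39 without the filter to -1.49 with that pseudocount. Hoxa6 differed by less than 2-fold in all 7 comparisons of the design.

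The other 8 pairs of groups cross genotype label and treatment together and answer no question of the design, but 3 of them held the smallest Hox differences. Ago2-/- DMSO and Ago2+/+ tunicamycin differed at 0 of 21 Hox loci (1.83% of all loci), with no test behind the count, and the widest gap was 0.35 on the log2 scale at Hoxa4. Ago2-/- tunicamycin and Ago2+/+ thapsigargin differed at 0 of 17 (2.19%), with the widest gap 0.39 at Hoxa5. Ago2-/- thapsigargin and Ago2+/+ DMSO differed at 1 of 12 (4.11%), which was Hoxd8 at 1.36. The remaining 5 pairs differed at more Hox loci. Ago2-/- tunicamycin differed from Ago2+/+ DMSO at 17 of 20 (19.7%), and Ago2-/- thapsigargin from Ago2-/- tunicamycin at 18 of 21 (20.9%). The widest count was 25 of 26 (20.5%) for Ago2-/- thapsigargin against Ago2+/+ tunicamycin, where only Hoxa6 stayed under 2-fold. Counts nearer to the share over all loci came from 2 pairs. Ago2+/+ thapsigargin against Ago2+/+ tunicamycin gave 8 of 22 (36.4%, against 22.6% of all loci). Ago2-/- DMSO against Ago2+/+ thapsigargin also gave 8 of 22 (36.4%, against 23.1%). In both the 8 included the 5 detected Hoxc loci, which are neighbours in the same cluster.

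**Figure D4:**
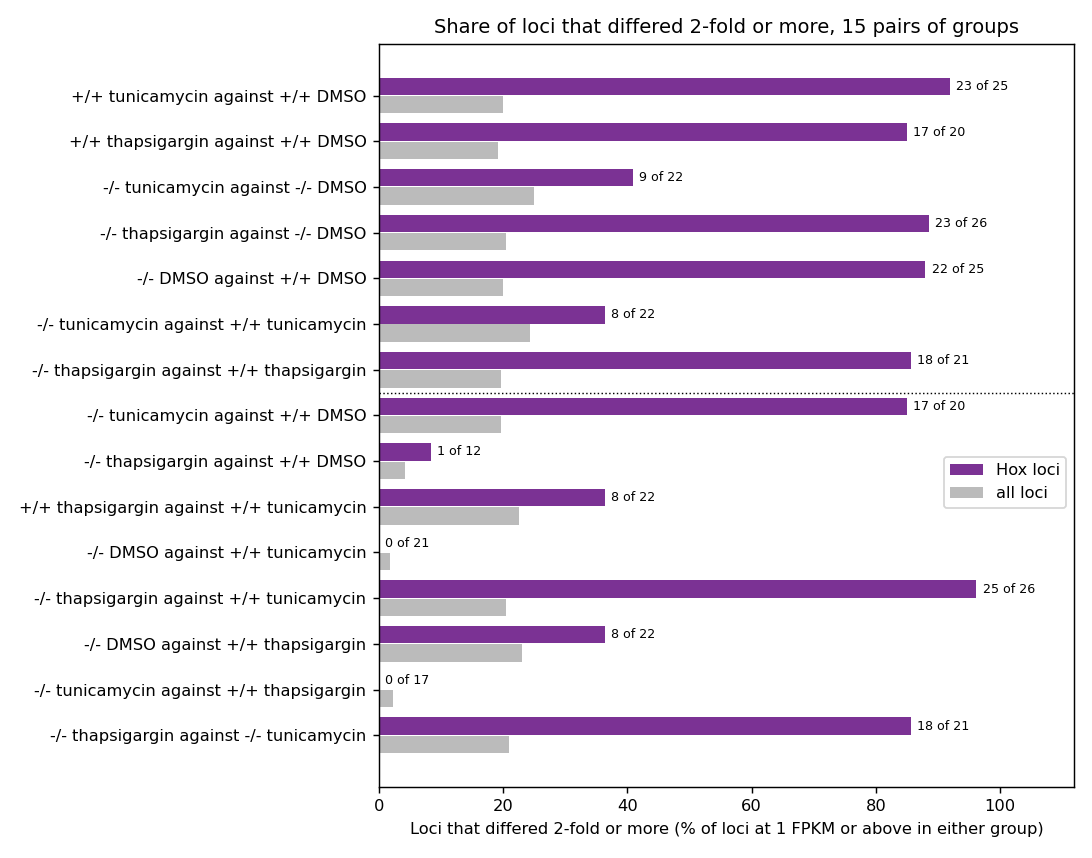
Percent of loci that differed 2-fold or more (x axis) in the 15 pairs of groups, for Hox loci (purple, with counts) and for all loci (grey), the 7 comparisons of the design above the dotted line. The Hox bars exceed the grey ones in 13 pairs and are at 0 in -/- DMSO against +/+ tunicamycin and in -/- tunicamycin against +/+ thapsigargin.

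As a description of likeness without a test, Pearson's r of log2(FPKM + 0.1) over the 26 Hox loci was 0.998 between Ago2-/- DMSO and Ago2+/+ tunicamycin. Ago2-/- tunicamycin against Ago2+/+ thapsigargin gave 0.999, and Ago2-/- thapsigargin against Ago2+/+ DMSO gave 0.991. In the other 12 pairs it lay between -0.51 and 0.47. The pairs with the highest Hox values were also the highest over 13032 loci of all kinds, at 0.972, 0.973 and 0.964 in the same order. Over those loci the other 12 pairs lay between 0.82 and 0.85. Which pairs were most alike was thus not particular to the Hox loci. Hox loci of a cluster are neighbours and are not independent points.

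The clusters also hold microRNA genes, which matter here because AGO2 is the protein that cleaves a target when a microRNA pairs with it along its whole length. Hoxb8 is the known natural case of such cleavage, guided by miR-196a. The mature sequences below, from RefSeq on GRCm38.p6, are shown with the seed (bases 2 to 8) in capitals. The miR-196 genes lie at Hoxb9, at Hoxa9 and between Hoxc9 and Hoxc10, and the miR-10 genes at Hoxb4 and Hoxd4.
mmu-miR-196a-5p: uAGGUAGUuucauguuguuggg
mmu-miR-196b-5p: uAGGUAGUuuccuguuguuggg
mmu-miR-10a-5p: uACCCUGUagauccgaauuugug
mmu-miR-10b-5p: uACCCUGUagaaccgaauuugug

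miR-196a and miR-196b share 1 seed, and miR-10a and miR-10b share another. Against the GENCODE M21 transcripts of 39 Hox genes, the best ungapped pairing of miR-196a was with Hoxb8, where all 22 bases paired, 21 as Watson-Crick pairs and 1 as a G:U pair inside the seed. The site is shown because no other Hox 3′ UTR paired at more than 19 bases. It lies at chr11:96284888-96284909 on the plus strand, in the 3′ UTR of Hoxb8, with the bases opposite the seed in capitals.
Hoxb8 site: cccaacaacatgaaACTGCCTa

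Hoxb8, the gene with this site, was at 7.73 and 13 FPKM in Ago2+/+ tunicamycin and thapsigargin. In Ago2-/- DMSO and tunicamycin it was at 6.66 and 14.2 FPKM. Relative to its neighbour Hoxb9 the ratio was 0.227, 0.175, 0.211 and 0.187 in the same order, and relative to Hoxb7 it was 0.450, 2.01, 0.371 and 2.13. Ago2 in that order was at 5.75, 17.0, 5.61 and 15.5 FPKM. In Ago2+/+ DMSO and Ago2-/- thapsigargin Ago2 was at 22.1 and 20.7 FPKM and Hoxb8 at 0.0310 and 0.00372 FPKM. The neighbours were as low in these groups, with Hoxb9 at 0.00391 and 0.0161 FPKM and Hoxb7 listed at 0. The low level was thus not particular to Hoxb8, and its relation to the Ago2 level was not tested. Because Ago2 went against the labels, a comparison of Hoxb8 by label cannot bear on cleavage by AGO2, which was not tested. An exact match to the miR-196 seed (ACTACCT) stood in the 3′ UTR of 9 of the 39 Hox genes (23.1%), against 6.10% of 21022 genes. Among them were Hoxa4, Hoxa5, Hoxa7, Hoxa9, Hoxb1, Hoxb6, Hoxb7 and Hoxc8. The miR-10 match (ACAGGGT) stood in 4 of 39 (10.3%) against 12.5% of genes. Such matches describe letters, not active sites. The hairpins Mir10a, Mir10b, Mir196a-1, Mir196a-2 and Mir615 were all listed at 0, and this assay does not measure mature microRNAs.

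Promoters were read from the RefSeq table for 22 of the 39 Hox genes (24 windows, GRCm38.p6, the 250 bases before the transcript start). The median number of CG pairs was 12.5 for Hox windows and 6 for 32851 windows of all genes. The TTTATG motif, a core of the binding site of posterior Hox and Cdx proteins, stood on either strand in 5 of 24 Hox windows and in 10.8% of all windows. TATAAA, the TATA box, stood in 4 of 24 and in 12.4%, and TGATNNAT, the joint Pbx and Hox motif, in 4 of 24 and in 7.68%. TATAAA can overlap itself on the opposite strand. The windows below belong to Hoxb8 and Hoxc4, as 1 gene each of the Hoxb and Hoxc patterns, and to Hoxd13 and Hoxa11, which were detected in the same groups, with every match to the 3 motifs in capitals.
Hoxb8 (chr11:96281655-96281904, plus strand): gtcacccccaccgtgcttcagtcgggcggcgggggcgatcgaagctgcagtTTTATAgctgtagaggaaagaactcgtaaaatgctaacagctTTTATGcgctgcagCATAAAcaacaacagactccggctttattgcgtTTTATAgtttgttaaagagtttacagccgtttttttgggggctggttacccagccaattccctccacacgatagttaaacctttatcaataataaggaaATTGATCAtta
Hoxc4 (chr15:103034145-103034394, plus strand): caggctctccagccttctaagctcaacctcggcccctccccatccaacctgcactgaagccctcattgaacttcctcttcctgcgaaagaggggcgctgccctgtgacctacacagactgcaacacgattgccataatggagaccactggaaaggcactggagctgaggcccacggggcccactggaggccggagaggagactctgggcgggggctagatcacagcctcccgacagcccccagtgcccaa
Hoxd13 (chr2:74667975-74668224, plus strand): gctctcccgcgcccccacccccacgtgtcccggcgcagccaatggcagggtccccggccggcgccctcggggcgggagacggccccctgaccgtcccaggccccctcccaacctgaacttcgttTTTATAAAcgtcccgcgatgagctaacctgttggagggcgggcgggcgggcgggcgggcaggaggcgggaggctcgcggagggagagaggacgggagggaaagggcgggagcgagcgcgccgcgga
Hoxa11 (chr6:52245811-52246060, minus strand): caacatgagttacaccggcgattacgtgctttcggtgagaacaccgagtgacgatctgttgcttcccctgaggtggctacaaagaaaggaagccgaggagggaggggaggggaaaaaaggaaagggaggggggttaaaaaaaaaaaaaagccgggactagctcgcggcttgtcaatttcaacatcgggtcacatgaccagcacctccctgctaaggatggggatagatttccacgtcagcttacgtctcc

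The Hoxb8 window held all 3 motifs, with 2 matches to TTTATG, 2 to TATAAA and 1 to TGATNNAT. In the Hoxd13 window the 2 matches to TATAAA overlap, 1 on each strand, and it held 31 CG pairs. Hoxc4 with 8 CG pairs and Hoxa11 with 13 held none of the motifs.

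Some noncoding RNAs of the clusters had the pattern of a coding gene next to them, and Hoxb5os did not. Of 16 listed, 15 were found and 6 reached 1 FPKM in some group. Of the 6, 4 had a 4-fold range, against 20.9% of all loci, and these are named. Hoxa11os, antisense to Hoxa11 and merged with other transcripts, was at 24.5 and 32.6 FPKM in Ago2+/+ DMSO and Ago2-/- thapsigargin, at 0.0832 and 0.882 FPKM in Ago2+/+ thapsigargin and Ago2-/- tunicamycin, and listed at 0 in the other 2. Hoxb5os was at 2.08 FPKM in Ago2+/+ tunicamycin and 1.87 in Ago2-/- DMSO and listed at 0 elsewhere, unlike Hoxb5 itself, which was detected in 4 groups. Hoxb3os was at 1.09, 1.04, 1.09 and 0.961 FPKM in the 4 groups with Hoxb. Hoxaas2 was at 0.479, 4.19 and 1.29 FPKM in Ago2+/+ and at 3.04, 1.45 and 0.332 FPKM in Ago2-/-. Hotair, which lies in the Hoxc cluster, and Haglr, in the Hoxd cluster, were listed at 0 throughout. Because strand is not given, reads of an antisense RNA and of its partner cannot be told apart.

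The genes that flank the clusters varied less than the Hox loci. Of 14 flanking genes 10 reached 1 FPKM, and none of the 10 had a 4-fold range, against 20.9% of all loci. The widest were Skap2 (13.4 to 32.8 FPKM), beyond the 3′ end of Hoxa, and Snx10 (7.88 to 17.5 FPKM) on the same side. Both were lowest in Ago2+/+ tunicamycin and Ago2-/- DMSO, the groups in which Hoxa9 was below 1 FPKM. The repressors and activators that keep Hox genes silent or open varied as little. All 26 Polycomb group genes reached 1 FPKM and none had a 4-fold range (20.9% of all loci). The widest was Phf19, a partner of the PRC2 methyltransferase, from 8.58 to 19.0 FPKM. Suz12, a core subunit of that enzyme, was at 73.2, 48.3 and 40.5 FPKM in Ago2+/+ and at 52.8, 41.6 and 76.5 FPKM in Ago2-/-. Of 11 Trithorax, demethylase and boundary genes 10 reached 1 FPKM and none had a 4-fold range (20.9% of all loci). Kdm6a, the X-linked demethylase of the Polycomb mark, was the widest at 16.9 to 31.1 FPKM.

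All 9 homeodomain cofactors that bind DNA together with Hox proteins reached 1 FPKM. Of the 9, 3 had a 4-fold range, against 20.9% of all loci, a small difference in so short a list. Meis1, a marker of the proximal limb, was at 1.04, 2.44 and 9.76 FPKM in Ago2+/+ DMSO, tunicamycin and thapsigargin and at 2.77, 12.4 and 0.980 FPKM in Ago2-/-. Pknox2 was at 0.25, 4.53 and 4.35 FPKM in Ago2+/+ and at 3.85, 6.30 and 0.279 FPKM in Ago2-/-. Meis3, with a range below 4-fold, was at 6.05 and 2.40 FPKM in Ago2+/+ DMSO and Ago2-/- thapsigargin and between 7.30 and 8.76 FPKM elsewhere. Meis1, Pknox2 and Meis3 thus had their 2 lowest values in Ago2+/+ DMSO and Ago2-/- thapsigargin, the groups in which no Hoxb or Hoxc locus was detected and Hoxa11 and Hoxd13 were highest.

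Other factors that mark a position in the limb or body wall also differed between the groups. Of 24 listed, 15 reached 1 FPKM and 10 of the 15 had a 4-fold range, against 20.9% of all loci. Tbx5, the forelimb factor, was at 3.98, 0 and 8.30 FPKM in Ago2+/+ DMSO, tunicamycin and thapsigargin and at 0, 8.77 and 1.67 FPKM in Ago2-/-. Emx2, needed for the shoulder blade and the kidney, was at 15.7 and 14.7 FPKM in Ago2+/+ thapsigargin and Ago2-/- tunicamycin and at most 0.473 FPKM in the other 4. Alx1, a factor of the head mesenchyme, was at 2.98, 0 and 8.25 FPKM in Ago2+/+ and at 0, 7.45 and 5.22 FPKM in Ago2-/-. All 3 were lowest in Ago2+/+ tunicamycin and Ago2-/- DMSO, the groups with Hoxc. A further 3 genes were picked after their values were seen and outside the rule of widest range, so they do not speak for the list. En1, with a range of 5.61 on the log2 scale, was wider than Shox2 at 4.24 and Cdx2 at 5.30 and was passed over. Shox2, of the upper arm and thigh, was at 23.8 and 31.7 FPKM in Ago2+/+ DMSO and Ago2-/- thapsigargin and at most 3.42 FPKM elsewhere. Lmx1b, of the back of the limb, was at 7.22 and 2.16 FPKM in those 2 groups and at most 0.170 FPKM elsewhere. Cdx2, of the tail end of the embryo, was at 3.79 and 3.84 FPKM in Ago2+/+ tunicamycin and Ago2-/- DMSO and listed at 0 in the other 4.

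**Figure D5:**
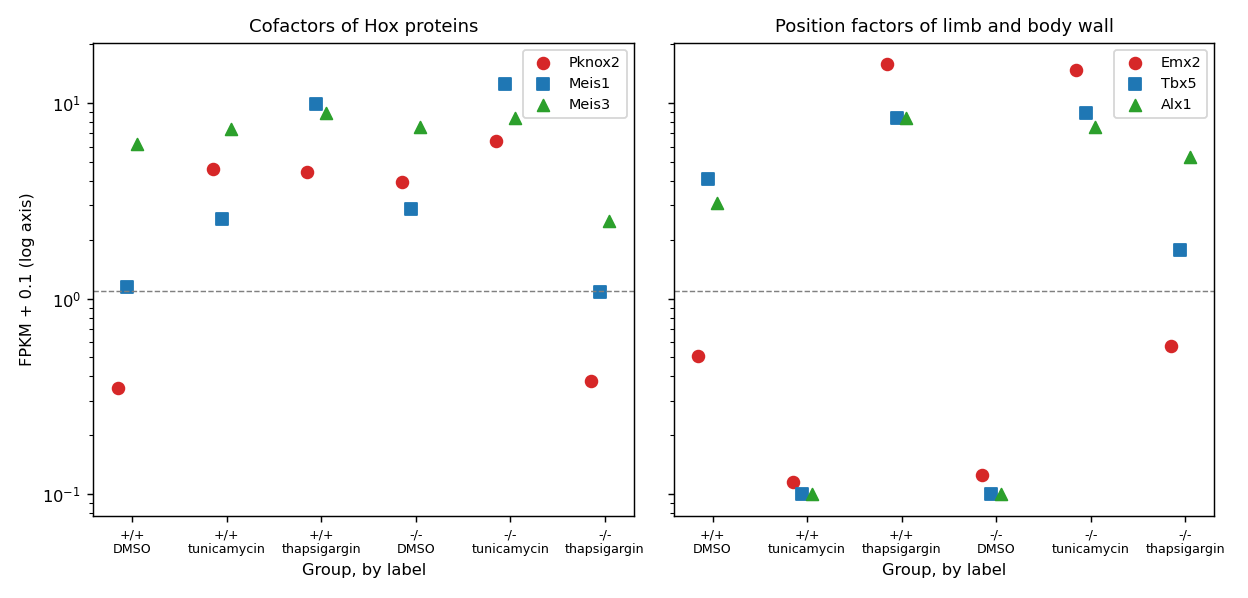
FPKM + 0.1 (log axis) of 3 cofactors (left) and 3 position factors (right), in the 6 groups by label, 1 pooled value each, with the dashed line at 1 FPKM. Pknox2, Meis1 and Meis3 are lowest in +/+ DMSO and -/- thapsigargin, and Emx2, Tbx5 and Alx1 are lowest in +/+ tunicamycin and -/- DMSO.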

How the data were processed

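Values were taken from 1 deposited table of 772485 rows, 1 for each of 51499 loci and 15 pairs of groups. The authors aligned reads with HISAT2, assembled transcripts with StringTie guided by Ensembl annotation on GRCm38, and quantified loci with Cuffdiff. The submitters' processing notes name FastQC 0.11.7, HISAT2 2.1.0, StringTie 1.3.4d and Cuffdiff 2.2.1. The deposited FPKM is 1 value the authors made over the 3 libraries of a group. No library value, count or depth was used, so neither a replicate error nor a test could be had, and the number of libraries and the pooling limit the precision. The table also holds the authors' log2 fold changes, test statistics, p-values and q-values, which were not used. No source used here states the strandedness.

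Loci were Hox members where a symbol matched Hox, a cluster letter and a number. All 39 genes matched GENCODE M21 by Ensembl ID, which gave coordinates. Levels were compared as log2(FPKM + 0.1), which understates changes of low genes, among loci at 1 FPKM or above in either group, with 2-fold as the limit. The functions were tested on simulated data. Groups followed the library titles. Every Hox locus at 1 FPKM or above was named, and from each other list at most the 4 members with the widest range. The 3 position factors picked after their values were seen fall outside this rule. So do the cell type markers and the genes that check the labels, and also Hotair, Haglr and the microRNA hairpins, which were listed at 0. Values of 3 genes that this rule names are not reported here, although counts and sums include them. Members and lists were chosen with earlier results of these data known. Alternatives were other pseudocounts (0.01 and 1), no filter, other detection limits (0.5 and 2 FPKM), no merged loci and centring on the median. Analyses used Python 3.11.15, pandas 2.3.3 and numpy 2.4.6.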

Additional observations from a re-analysis of the deposited data

Results flagged for a closer look

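Tunicamycin against DMSO differed 2-fold or more in opposite directions under the 2 genotype labels at 7 of 22 Hox loci (10.1% of 11795 loci of all kinds). Thapsigargin against DMSO did so at 16 of 20 (7.15% of 11677 loci). With 1 pooled value per group this contrast was not tested. The values below are the log2(FPKM + 0.1) difference from DMSO in the Ago2-/- label minus that in the Ago2+/+ label. Where a group was listed at 0 or close to it, as for most Hoxb loci, their size depends on the pseudocount.

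For tunicamycin, Hoxa9 was lower in Ago2+/+ and higher in Ago2-/-, with a value of 8.02. The other 6 loci were higher in Ago2+/+ and lower in Ago2-/-. For Hoxb7 the value was -8.85, and for the 5 Hoxc loci it was -11.85 (Hoxc4), -11.87 (Hoxc5/Hoxc10), -14.35 (Hoxc6), -15.98 (Hoxc8) and -9.09 (Hoxc9).

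For thapsigargin, 5 posterior loci were lower in Ago2+/+ and higher in Ago2-/-. Their values were 5.85 for Hoxa9, 3.16 for Hoxa10, 12.48 for Hoxa11, 10.37 for Hoxd10/Hoxd11 and 12.77 for Hoxd13. The other 11 were higher in Ago2+/+ and lower in Ago2-/-. Of these, Hoxa2/Hoxa3 stood at -4.19 and Hoxa4 at -2.19. The 9 Hoxb loci stood at -12.56 (Hoxb2), -10.72 (Hoxb3), -10.18 (Hoxb4), -8.68 (Hoxb5), -10.76 (Hoxb6), -13.53 (Hoxb7), -12.67 (Hoxb8), -17.58 (Hoxb9) and -7.09 (Hoxb13). Ago2 itself and the sex-linked genes also differed between these groups, and their part was not tested.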

How the results depend on the processing

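The number of Hox loci at 1 FPKM or above stayed within 1.5 times in each group with limits of 0.5 and 2 FPKM and without merged loci, and the 15 likeness values moved by at most 0.1 with a pseudocount of 1. The count of loci that differed 2-fold changed by over 1.5 times only for Ago2-/- thapsigargin against Ago2+/+ DMSO, from 1 to 0 with a pseudocount of 1 and to 2 without the filter. The median Hox log2 difference kept its sign at every alternative, but its size depends on how loci listed at or near 0 are treated. With a pseudocount of 1 it was 1.97 (Ago2+/+ tunicamycin against Ago2+/+ DMSO), 1.22 (Ago2+/+ thapsigargin against Ago2+/+ DMSO), -1.82 (Ago2-/- thapsigargin against Ago2-/- DMSO), 1.75 (DMSO, Ago2-/- against Ago2+/+), -1.01 (thapsigargin, Ago2-/- against Ago2+/+), 1.33 (Ago2-/- tunicamycin against Ago2+/+ DMSO), -1.97 (Ago2-/- thapsigargin against Ago2+/+ tunicamycin) and -1.15 (Ago2-/- thapsigargin against Ago2-/- tunicamycin). Without the filter the same 8 pairs gave 1.94, 0.33, -1.83, 1.71, -0.39, 0.54, -2.07 and -0.42. With a pseudocount of 0.01 it moved for 4 pairs, to 6.62 (Ago2+/+ tunicamycin against Ago2+/+ DMSO), -6.58 (Ago2-/- thapsigargin against Ago2-/- DMSO), 6.42 (between the DMSO groups) and -6.72 (Ago2-/- thapsigargin against Ago2+/+ tunicamycin). Without merged loci it was 2.67 (Ago2+/+ thapsigargin against Ago2+/+ DMSO), -4.45 (Ago2-/- thapsigargin against Ago2-/- DMSO), 2.99 (Ago2-/- tunicamycin against Ago2+/+ DMSO) and -4.64 (Ago2-/- thapsigargin against Ago2+/+ tunicamycin). Centring on the median of all loci moved no median by more than 0.03. No paired analysis was possible because the table holds 1 pooled value per group, and for the same reason no replicate could be left out and no conflicting library removed.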
